A study of Homo sapiens with 16 samples.

Results

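The comparison described here was between UACC62R melanoma cells kept for 24 h and UACC62R cells kept for 6 h in 10 uM CCG-222740, which is known to block gene activation by MRTF and SRF. Its members are the 4 libraries that the labels give as UACC62R with that compound at 6 h (replicates 1 and 2) and at 24 h (replicates 1 and 2), out of 16 libraries in 8 groups, read across all genes. Of 63677 gene identifiers, 17964 passed the filter on low counts and were tested. UACC62R is a human melanoma line derived from UACC62P by resistance to vemurafenib, an inhibitor of mutant BRAF. For the untreated UACC62R libraries the labels state selection for 2 months in 2 uM vemurafenib and growth in the same dose thereafter. Vemurafenib in the medium of the treated libraries is not given in the sources used. Poly(A) RNA was sequenced from 2 libraries per group, and no label names separate cultures, so the p-values reflect the spread between these libraries alone, which may be technical. No vehicle-treated library at 6 h or 24 h was used, so longer exposure to the compound and longer time in culture cannot be told apart.

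MRTFA and MRTFB are coactivators that are held in the cytoplasm by monomeric actin and enter the nucleus when actin filaments form, where they activate the transcription factor SRF at the genes of actin and actin-binding proteins. YAP and TAZ are coactivators of TEAD transcription factors that also respond to the state of the actin cytoskeleton, and many of their target genes, such as CCN1 and CCN2, overlap with those of MRTF. Melanoma cells that have lost melanocyte differentiation often have high activity of both pathways, and such cells are often less sensitive to BRAF inhibitors.

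Reads in genes numbered 28.9 to 32.6 M in the 4 libraries. The 2 libraries of a group differed from each other by a chi-square per degree of freedom of 12.1 at 6 h and 17.3 at 24 h, so none was a copy of the other. The library labelled UACC62P 2 h replicate 1 stood apart from its replicate (269), and it enters no value given except those of the fit of all 16 libraries. Between 9.33 and 12.7% of all reads were not aligned, and the 50 most abundant genes took 14.3 to 14.97% of the reads in genes. Levels are given as CPM, counts relative to the reads in genes of a library, scaled by TMM. The summed level of 6 markers of the melanocyte lineage was 92.2 to 99.2 CPM in the 4 UACC62R libraries. In the UACC62P libraries at the same times it was 1166 to 1293 CPM. MLANA, PMEL and TYR were under 1 CPM in all 4 UACC62R libraries. The lineage factors MITF (41.0 to 53.5 CPM), SOX10 (19.97 to 29.9 CPM) and PAX3 (22.7 to 25.1 CPM) were present there and gave nearly all of the sum. Of 7 blood markers, 7 were under 1 CPM in all 4 libraries, as were 3 of 4 endothelial and 5 of 7 epithelial markers. CDH1 and PECAM1 had no read. The summed epithelial markers, to which KRT18 gave most, were 79.9 and 91.7 CPM at 6 h and 65.3 and 71.2 CPM at 24 h, and their part in the results below was not tested. In bulk RNA, fewer cells of a kind and less RNA per cell cannot be told apart.

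Between 6 h and 24 h the cells lost transcripts of the actin cytoskeleton, of YAP/TAZ targets, of DNA replication, of ribosome assembly and of cytosolic heat shock chaperones. They gained transcripts of the endoplasmic reticulum (ER) and of vesicle transport. In all, 722 genes were higher at 24 h (4.02% of those tested) and 940 were lower (5.23%) by edgeR's quasi-likelihood test, where a gene is called at an adjusted p (Benjamini-Hochberg) under 0.05. Taking all genes, the log2 fold change had a median of 0.0063. Called changes were mostly small: their median size was 0.58 on the log2 scale with a median standard error of 0.11, and 86 higher and 155 lower genes had a change of at least 2-fold. With the replicate number as a block in the model, 2588 genes were higher (14.4%) and 2968 lower (16.5%). The list counts with the block are to be read against these shares. Those without it are to be read against 4.02% and 5.23%. The counts without the block depended on which library was left out: they were 216 higher and 358 lower without 6 h replicate 1, 73 and 135 without 6 h replicate 2, 236 and 380 without 24 h replicate 1, and 586 and 971 without 24 h replicate 2.

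**Figure D1:**
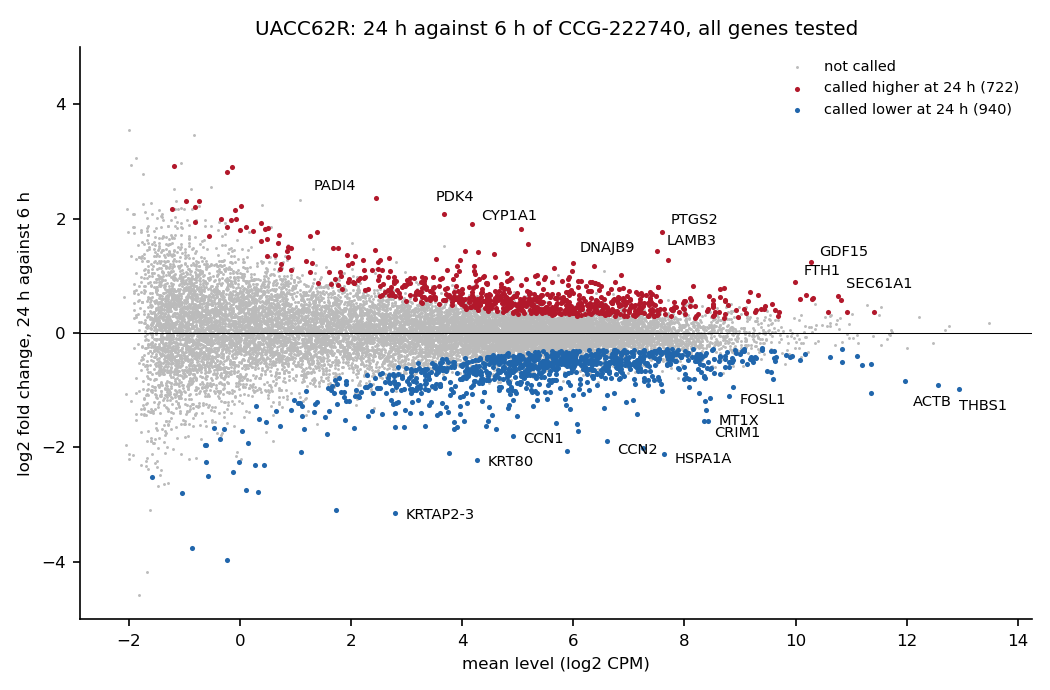
Each point is a gene tested in UACC62R: its mean level (log2 CPM) on the horizontal axis and its log2 fold change from 6 h to 24 h on the vertical axis, with 3 genes outside the plotted range. Red points are the 722 genes called higher at 24 h and blue points the 940 called lower. Most called genes lie within 2-fold, and KRTAP2-3 is the labelled gene with the largest fall.

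The cytoskeletal targets of MRTF and SRF fell at 24 h. Of 23 tested members of this list 12 were called lower, or 52.2% against 5.23% of all genes, and 0 higher (17 lower and 1 higher with the block), and the list's median log2 fold change was -0.41. ACTB, cytoplasmic beta-actin, stood at 7056 and 6513 CPM at 6 h and 3616 and 3570.5 CPM at 24 h (log2 fold change -0.91, standard error 0.078, adjusted p = 0.0016). ACTG1, gamma-actin, stood at 3093 and 2847 CPM at 6 h and 1617 and 1261 CPM at 24 h (log2 fold change -1.04, standard error 0.12, adjusted p = 0.0040). Both 24 h libraries lay well below both 6 h libraries for each actin gene, so the groups did not overlap. Such genes were named because they were called, and the share of all genes without overlap is not given. A lack of overlap, here and below, is therefore description and not further support. TPM1, a tropomyosin that binds along actin filaments, went from 266 and 315 to 138 and 162 CPM (log2 fold change -0.95, standard error 0.12, adjusted p = 0.0051). CNN3, an actin-binding calponin, went from 227 and 227 to 121 and 123 CPM (log2 fold change -0.90, standard error 0.069, adjusted p = 0.0016). The other called members were CNN2, LIMA1, VCL, FHL2, MYH9, TPM4, PDLIM7 and TAGLN2, with log2 fold changes from -0.83 to -0.41. ACTB and ACTG1 have many processed pseudogenes, and reads that aligned to more than 1 place were counted for no gene, so their levels are uncertain. 

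The muscle-type members and the factors themselves did not pass the test. ACTA2, smooth muscle actin, had 21.9 and 19.8 CPM at 6 h and 19.6 and 20.9 CPM at 24 h (log2 fold change -0.036, adjusted p = 0.86), and TAGLN, transgelin, had 4.90 and 7.82 CPM at 6 h and 5.29 and 8.62 CPM at 24 h (log2 fold change 0.14, adjusted p = 0.83). SRF had 74.5 and 69.1 CPM at 6 h and 63.2 and 55.8 CPM at 24 h (log2 fold change -0.27, adjusted p = 0.099, and 0.0032 with the block). MRTFA had 68.5 and 71.5 CPM at 6 h and 69.3 and 65.1 CPM at 24 h (log2 fold change -0.057, adjusted p = 0.70), and MRTFB had 35.2 and 30.3 CPM at 6 h and 43.1 and 31.4 CPM at 24 h (log2 fold change 0.19, adjusted p = 0.52). ACTG2, CNN1, FILIP1L, MYL9 and TGFB1I1 were below the count filter. With 6 h replicate 1, 6 h replicate 2, 24 h replicate 1 or 24 h replicate 2 left out in turn, 9, 7, 10 and 12 members were called lower.

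SRF acts through the CArG box, and ACTG1, a called member with such a box, is shown as an example. The box was searched on both strands in RefSeq promoters (GRCh38.p14, 250 bases before to 50 bases after each start). It was in 6 of 21 list members with a promoter in that table (28.6%), in 1.15% of 11802 tested genes and in 1.29% of all 27305 promoters. Among called genes it was in 17 of 733 lower and 4 of 561 higher genes. A match is a description of the letters and not of binding. The 250 bases before the start of ACTG1 (chr17:81512800-81513049, minus strand) are given 5′ to 3′ with the CArG box in capitals.
ACTG1: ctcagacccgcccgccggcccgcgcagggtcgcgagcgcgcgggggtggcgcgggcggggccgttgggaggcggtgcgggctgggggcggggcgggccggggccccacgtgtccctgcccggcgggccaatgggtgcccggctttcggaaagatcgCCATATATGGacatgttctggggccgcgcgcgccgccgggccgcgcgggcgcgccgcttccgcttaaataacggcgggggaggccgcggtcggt

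The YAP/TAZ targets also fell. Of 21 tested members 12 were called lower (57.1%, all genes 5.23%) and 0 higher. With the block 18 were lower, where 16.5% of all genes were, and 0 higher. The median log2 fold change was -0.62. CCN2, a secreted matrix-associated protein, had 111 and 133 CPM at 6 h and 30.4 and 35.3 CPM at 24 h (log2 fold change -1.89, standard error 0.14, adjusted p = 0.0016). CCN1, its relative, had 63.2 and 74.6 CPM at 6 h and 18.996 and 23.2 CPM at 24 h (log2 fold change -1.70, standard error 0.14, adjusted p = 0.0016). CRIM1, a membrane protein that binds growth factors, had 393 and 410.5 CPM at 6 h and 145 and 132 CPM at 24 h (log2 fold change -1.53, standard error 0.079, adjusted p = 0.00039). AMOTL2, an angiomotin that binds YAP, had 111 and 107 CPM at 6 h and 46.9 and 40.8 CPM at 24 h (log2 fold change -1.31, standard error 0.13, adjusted p = 0.0021). For each of these 4 genes both 24 h libraries lay well below both 6 h libraries. ANKRD1 was low throughout, at 1.03 and 0.575 CPM at 6 h and 0.162 and 0.117 CPM at 24 h (log2 fold change -2.50, standard error 0.53, adjusted p = 0.027). F3, NT5E, LATS2, AXL, MYOF, PTPN14 and DOCK5 were also called, with log2 fold changes from -0.88 to -0.47. Leaving out 6 h replicate 1, 6 h replicate 2, 24 h replicate 1 or 24 h replicate 2 in turn left 9, 5, 12 and 11 called members. The test was no longer passed by ANKRD1 with any of the 4 left out (adjusted p 0.067 to 0.14).

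The TEAD motif searched was GGAATG on both strands. It was in 6 of 15 list members with a promoter in the table (40%), in 11.1% of tested genes, in 14% of all promoters, in 13.2% of genes called lower and in 8.38% of those called higher. CCN2, shown because its fall is described above, has 3 matches in the 250 bases before its start (chr6:131951373-131951622, minus strand), which are in capitals.
CCN2: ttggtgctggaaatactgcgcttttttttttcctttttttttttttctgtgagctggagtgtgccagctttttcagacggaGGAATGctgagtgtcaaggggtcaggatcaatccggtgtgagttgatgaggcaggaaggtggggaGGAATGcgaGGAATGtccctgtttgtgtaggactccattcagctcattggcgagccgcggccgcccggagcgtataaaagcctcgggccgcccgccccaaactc

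Adhesion and matrix genes moved in part. Of 20 integrin and focal adhesion genes 5 were called lower (25%, all genes 5.23%) and 0 higher. The median was -0.11, and the counts were 9 and 0 with the block. The integrin subunits ITGAV (log2 fold change -0.71, adjusted p = 0.0061), ITGA5 (log2 fold change -0.66, adjusted p = 0.011), ITGA4 (log2 fold change -0.57, adjusted p = 0.0085) and ITGB8 (log2 fold change -0.56, adjusted p = 0.0085) fell. The common beta subunit ITGB1 had a log2 fold change of -0.11 and was not called. Of 26 matrix genes 8 were lower (30.8%, all genes 5.23%) and 1 higher (3.85%, all genes 4.02%). The median was -0.19, and the counts were 16 and 2 with the block. FBN1, the microfibril protein fibrillin-1, had 164 and 171 CPM at 6 h and 80.01 and 67.6 CPM at 24 h (log2 fold change -1.18, standard error 0.10, adjusted p = 0.0016). THBS1, thrombospondin-1, a matrix glycoprotein, had 8665 and 9514 CPM at 6 h and 4342 and 4891 CPM at 24 h (log2 fold change -0.97, standard error 0.092, adjusted p = 0.0019). COL5A1 (log2 fold change -0.80, adjusted p = 0.0096) and COL4A2 (log2 fold change -0.68, adjusted p = 0.0063), chains of fibrillar and basement membrane collagens, fell as well, while LAMB1, a laminin chain, was called higher (log2 fold change 0.66, adjusted p = 0.0043). With 6 h replicate 1, 6 h replicate 2, 24 h replicate 1 or 24 h replicate 2 left out, 4, 1, 5 and 4 integrin list members and 5, 3, 7 and 7 matrix genes were called lower. By gene, the call did not hold for ITGA5, ITGA4, ITGB8 and COL5A1 without 6 h replicate 2 (adjusted p 0.060 to 0.069).

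Of 21 immediate early genes, many of them transcription factors that growth signals induce, 6 were lower (28.6%, all genes 5.23%) and 0 higher. The median was -0.28, and the counts were 9 and 4 with the block. FOSL1, an AP-1 subunit, had 544 and 492 CPM at 6 h and 258 and 227 CPM at 24 h (log2 fold change -1.10, standard error 0.089, adjusted p = 0.0016). JUN, its partner, had 125 and 119 CPM at 6 h and 73.5 and 66.4 CPM at 24 h (log2 fold change -0.80, standard error 0.083, adjusted p = 0.0025). MYC (log2 fold change -0.68, adjusted p = 0.013) and KLF4 (log2 fold change -0.61, adjusted p = 0.035) also fell. FOS and EGR1 had log2 fold changes of 0.049 and 0.016 and were not called. Without 6 h replicate 1, 6 h replicate 2, 24 h replicate 1 or 24 h replicate 2, 3, 2, 5 and 5 members were called lower. No call remained for MYC without 6 h replicate 1 or 2 (adjusted p 0.057 to 0.062), and KLF4 without 6 h replicate 1 or 2 or 24 h replicate 1 (adjusted p 0.12 to 0.15). The call also ended for KLF4 from the 4 compared libraries alone (adjusted p = 0.060).

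The genes of the G1/S transition and DNA replication fell together. Of 25 tested members 21 were called lower (84% against 5.23% of all genes) and 0 higher, and 25 were lower with the block, and the median log2 fold change was -0.84. MCM10, a factor that starts replication forks, had 29.1 and 30.8 CPM at 6 h and 8.51 and 13.5 CPM at 24 h (log2 fold change -1.44, standard error 0.19, adjusted p = 0.0069). E2F2, a transcription factor of the G1/S program, had 10.8 and 7.85 CPM at 6 h and 3.18 and 3.87 CPM at 24 h (log2 fold change -1.40, standard error 0.20, adjusted p = 0.0089). CCNE2, a cyclin of S phase entry, had 11.3 and 9.38 CPM at 6 h and 3.67 and 4.17 CPM at 24 h (log2 fold change -1.40, standard error 0.16, adjusted p = 0.0040). GINS2, a subunit of the replicative helicase complex, had 24.1 and 25.4 CPM at 6 h and 8.74 and 12.8 CPM at 24 h (log2 fold change -1.19, standard error 0.17, adjusted p = 0.0077). In each of the 4 genes, which were named because they were called, the libraries of the 2 times did not overlap. The MCM2 to MCM7 helicase subunits, 6 genes, were all called, with log2 fold changes from -1.06 to -0.75. The number of called members was 16, 12, 17 and 25 without 6 h replicate 1, 6 h replicate 2, 24 h replicate 1 or 24 h replicate 2. UHRF1 was not analysed here. 

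E2F sites were searched as TTTCGCGC, TTTGGCGC and TTTCCCGC on both strands. At least 1 was in 14 of 21 list members with a promoter (66.7%), in 4.37% of tested genes and in 2.79% of all promoters. Over all called genes it was in 70 of 733 lower ones (9.55%) and 13 of 561 higher ones (2.32%). Among the members described above, E2F2, GINS2, MCM2, MCM3, MCM6 and MCM7 hold such a site. As examples, 2 with a site before the start are shown with it in capitals: E2F2 (chr1:23531234-23531483, minus strand) and GINS2 (chr16:85688955-85689204, minus strand).
E2F2: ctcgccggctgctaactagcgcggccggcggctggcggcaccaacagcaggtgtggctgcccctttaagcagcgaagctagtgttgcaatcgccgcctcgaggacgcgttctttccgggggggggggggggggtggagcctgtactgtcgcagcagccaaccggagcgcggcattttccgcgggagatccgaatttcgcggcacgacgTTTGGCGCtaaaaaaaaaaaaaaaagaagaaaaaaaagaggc
GINS2: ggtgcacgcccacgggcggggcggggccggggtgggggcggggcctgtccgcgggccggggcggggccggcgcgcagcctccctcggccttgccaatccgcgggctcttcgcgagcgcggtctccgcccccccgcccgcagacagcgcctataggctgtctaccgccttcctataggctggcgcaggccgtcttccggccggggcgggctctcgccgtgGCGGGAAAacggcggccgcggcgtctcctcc

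For mitotic genes the call depended on the model. Of 27 members of the G2/M list 0 were called either way by edgeR without the block (16 were lower at an unadjusted p under 0.05, and DESeq2 called 10 lower), 25 were called lower with the block, and the median log2 fold change was -0.52. All 27 estimates were negative, and without 24 h replicate 2 edgeR called 21 of them lower. MKI67, a protein of proliferating cells, had 178 and 217 CPM at 6 h and 110.5 and 162 CPM at 24 h (log2 fold change -0.53, adjusted p = 0.10, and 1.1e-05 with the block). CCNB2, a mitotic cyclin, had 73.3 and 88.7 CPM at 6 h and 46.4 and 63.4 CPM at 24 h (log2 fold change -0.56, adjusted p = 0.063, and 1.6e-05 with the block). In both, replicate 2 was above replicate 1 at each time, and each replicate was lower at 24 h than at 6 h. CCND1, cyclin D1, had 639 and 554 CPM at 6 h and 506 and 429 CPM at 24 h (log2 fold change -0.35, adjusted p = 0.10), and the cell cycle inhibitor CDKN1A had 505 and 438 CPM at 6 h and 575 and 563 CPM at 24 h (log2 fold change 0.27, adjusted p = 0.079), both not called. With the block, CCND1 was lower (adjusted p = 2.1e-05) and CDKN1A higher (adjusted p = 0.00083).

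Ribosome assembly genes fell as well. Of 25 tested members 13 were lower (52%, all genes 5.23%) and 0 higher (23 and 0 with the block), with a median of -0.42. NOC3L (log2 fold change -0.67, adjusted p = 0.023), DKC1 (log2 fold change -0.67, adjusted p = 0.014) and NOP16 (log2 fold change -0.67, adjusted p = 0.026), nucleolar proteins of ribosomal RNA or subunit maturation, had close to the same fold. FBL, the methyltransferase fibrillarin, had 151 and 141 CPM at 6 h and 100.01 and 96.2 CPM at 24 h (log2 fold change -0.57, standard error 0.075, adjusted p = 0.0061). There were 5, 1, 3 and 11 called members without 6 h replicate 1, 6 h replicate 2, 24 h replicate 1 or 24 h replicate 2. The call was lost for NOC3L and DKC1 without 6 h replicate 2 or 24 h replicate 1 (adjusted p 0.051 to 0.14), and NOP16 without 6 h replicate 1 or 2 or 24 h replicate 1 (adjusted p 0.054 to 0.15).

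**Figure D2:**
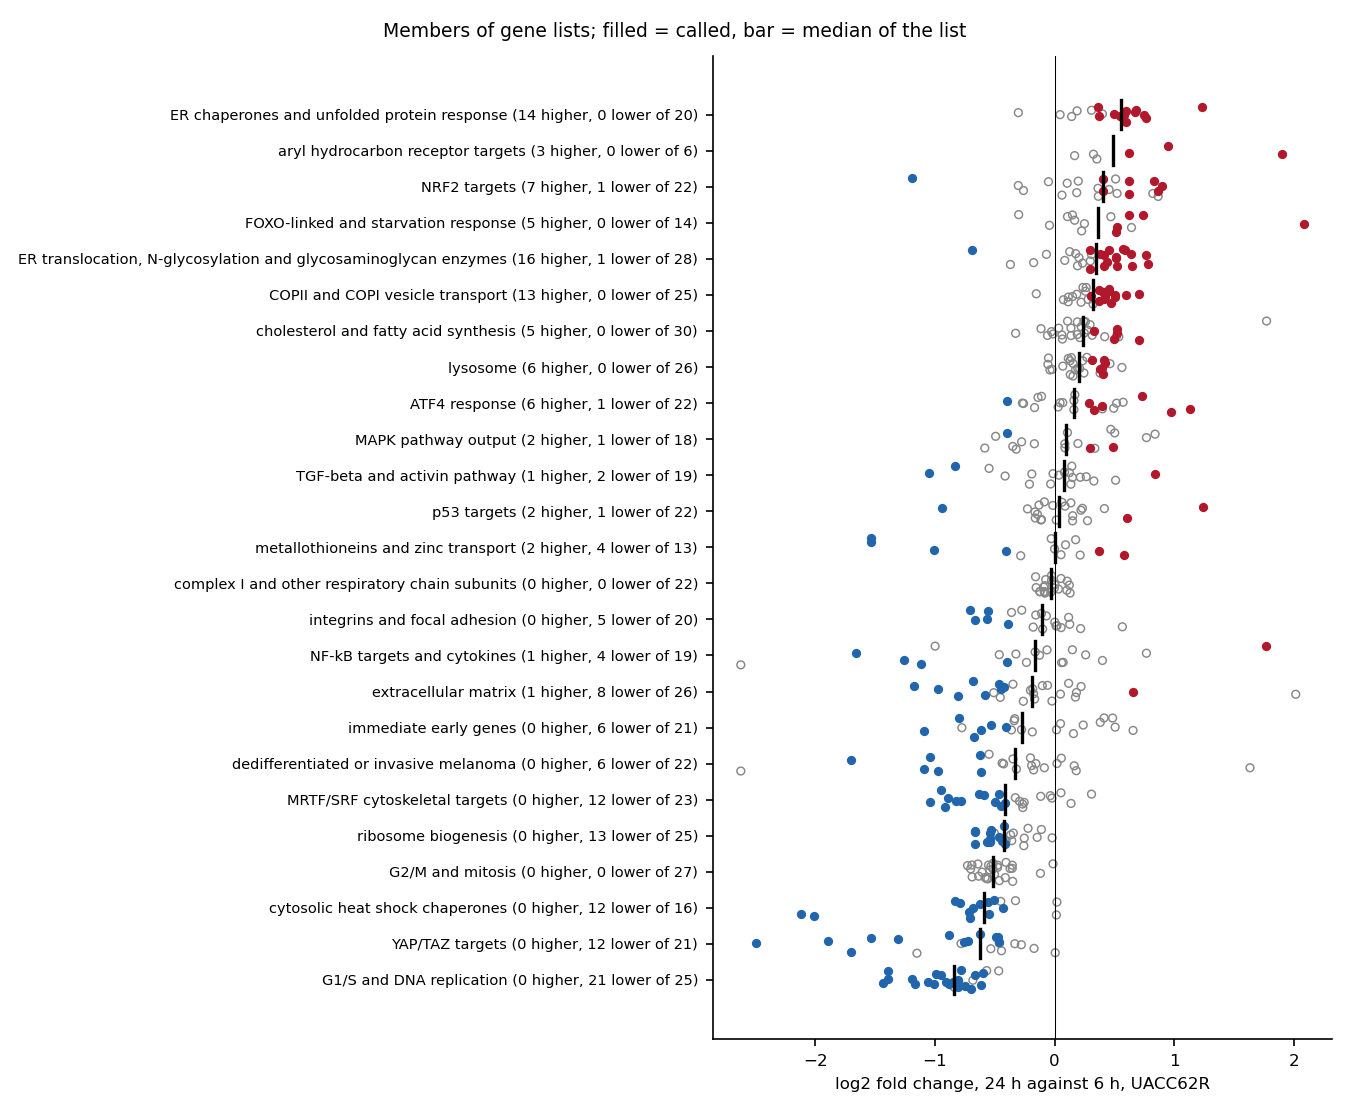
Each point is a tested member of a gene list, at its log2 fold change from 6 h to 24 h in UACC62R, filled red where called higher and blue where called lower. Black bars are list medians, which run from -0.84 for G1/S and DNA replication to 0.56 for ER chaperones, and list names carry the counts called.

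Heat shock chaperones fell between 6 h and 24 h. Of 16 members 12 were called lower (75%, all genes 5.23%) and 0 higher (14 and 0 with the block), with a median of -0.59. HSPA1A, the inducible HSP70, had 274 and 338 CPM at 6 h and 57.9 and 82.4 CPM at 24 h (log2 fold change -2.12, standard error 0.21, adjusted p = 0.0025). Its near-identical copy HSPA1B had 171 and 252 CPM at 6 h and 46.1 and 58.8 CPM at 24 h (log2 fold change -2.01, standard error 0.24, adjusted p = 0.0045), and reads that align to both were counted for neither, so their levels are uncertain. For both copies the 6 h libraries lay far above the 24 h libraries, replicate 2 above replicate 1 at each time. HSPA8, the constitutive HSP70, had 4537 and 5313 CPM at 6 h and 2594 and 2919.5 CPM at 24 h (log2 fold change -0.83, standard error 0.11, adjusted p = 0.0065), and CHORDC1, an HSP90 partner, had 128 and 158 CPM at 6 h and 70.01 and 94.9 CPM at 24 h (log2 fold change -0.79, standard error 0.17, adjusted p = 0.027). HSPE1, HSPH1, HSPD1, DNAJB1, HSP90AB1, HSP90AA1, HSPB1 and BAG3 were also called, from -0.72 to -0.43. HSF1, the factor that induces these genes, had a log2 fold change of 0.019 and was not called. Called members numbered 8, 3, 5 and 12 without 6 h replicate 1, 6 h replicate 2, 24 h replicate 1 or 24 h replicate 2. The test was no longer passed by CHORDC1 without 6 h replicate 2 or 24 h replicate 1 (adjusted p 0.089 to 0.15).

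The heat shock motif searched was GAANNTTC. It was in 6 of 14 list members with a promoter (42.9%), in 4.92% of tested genes and in 6.87% of all promoters. The match before the HSPA1A start is in capitals (chr6:31815293-31815542, plus strand).
HSPA1A: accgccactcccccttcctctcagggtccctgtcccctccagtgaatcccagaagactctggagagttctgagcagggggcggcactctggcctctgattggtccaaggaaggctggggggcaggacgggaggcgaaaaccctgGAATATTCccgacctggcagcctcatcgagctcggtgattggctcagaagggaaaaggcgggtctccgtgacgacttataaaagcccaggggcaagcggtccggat

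Metallothioneins fell too. They are small proteins that bind zinc and copper. MT1X had 558 and 506 CPM at 6 h and 207 and 160.5 CPM at 24 h (log2 fold change -1.53, standard error 0.13, adjusted p = 0.0016). MT1G had 34.4 and 21.1 CPM at 6 h and 10.001 and 9.12 CPM at 24 h (log2 fold change -1.54, standard error 0.24, adjusted p = 0.011). MT2A had 2631 and 2677 CPM at 6 h and 2085 and 1920.5 CPM at 24 h (log2 fold change -0.40, standard error 0.081, adjusted p = 0.023). SLC30A1, which exports zinc from the cell, had 199.6 and 253 CPM at 6 h and 109 and 116 CPM at 24 h (log2 fold change -1.005, standard error 0.11, adjusted p = 0.0035). In each of the 4 genes both 24 h libraries lay below both 6 h libraries. These were the 4 members called lower of 13 tested (30.8%, all genes 5.23%). SLC30A5 (log2 fold change 0.37, adjusted p = 0.049) and SLC39A7 (log2 fold change 0.58, adjusted p = 0.022), zinc transporters of the secretory pathway, were higher (15.4%, all genes 4.02%). The list's median was -0.00090. MT1A, MT1E, MT1F, MT1H and MT1M were below the filter, and the MT1 genes resemble one another, and reads shared among them were counted for none. Members called lower numbered 3, 3, 4 and 3, and members called higher 0, 0, 1 and 0, without 6 h replicate 1, 6 h replicate 2, 24 h replicate 1 or 24 h replicate 2. By gene, the call did not hold for MT2A and SLC39A7 without 6 h replicate 1 or 2 or 24 h replicate 2 (adjusted p 0.052 to 0.12).

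Metal response elements were searched as TGCGCNC and TGCACNC. A match was in 4 of 11 members with a promoter, MT1X, MT2A, SLC30A1 and SLC39A6, and also in 38.2% of tested genes, so the letters alone are common. MT1X has 4 in the 250 bases before its start (chr16:56682220-56682469, plus strand).
MT1X: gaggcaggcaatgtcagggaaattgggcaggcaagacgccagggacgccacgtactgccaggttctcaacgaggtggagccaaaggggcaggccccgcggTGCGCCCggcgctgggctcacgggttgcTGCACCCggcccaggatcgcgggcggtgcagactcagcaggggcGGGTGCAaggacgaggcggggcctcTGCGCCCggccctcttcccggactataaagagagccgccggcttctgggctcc

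The ER gained transcripts at 24 h. Of 20 ER chaperones and genes of the unfolded protein response, which balances folding capacity against load, 14 were called higher, or 70% against 4.02% of all genes, and 0 lower (17 and 1 with the block), with a median log2 fold change of 0.56. DNAJB9, a co-chaperone of BiP, had 43.6 and 45.5 CPM at 6 h and 90.8 and 118 CPM at 24 h (log2 fold change 1.23, standard error 0.12, adjusted p = 0.0024). SYVN1, the ubiquitin ligase of ER-associated degradation, had 89.3 and 94.3 CPM at 6 h and 157 and 155 CPM at 24 h (log2 fold change 0.76, standard error 0.074, adjusted p = 0.0021). HERPUD1, a partner in that pathway, had 68.8 and 65.6 CPM at 6 h and 112 and 114 CPM at 24 h (log2 fold change 0.75, standard error 0.077, adjusted p = 0.0025). DNAJC3, another co-chaperone, had 20.3 and 20.7 CPM at 6 h and 30.4 and 35.3 CPM at 24 h (log2 fold change 0.68, standard error 0.10, adjusted p = 0.010). In all 4 genes each 24 h library was above each 6 h library. HSPA5, the BiP chaperone itself, was called at 0.59 and XBP1, a transcription factor of this response, at 0.67. With 6 h replicate 1, 6 h replicate 2, 24 h replicate 1 or 24 h replicate 2 left out, 8, 7, 12 and 11 members were called higher. No call remained for DNAJC3 without 6 h replicate 1 or 2 (adjusted p 0.055 to 0.068).

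The letters CCACG, which form part of the ER stress element, were in 17 of 19 members with a promoter (89.5%), in 21 of 22 members of the vesicle transport list described next, in 48.7% of tested genes and in 37.9% of all promoters. They overlap in part with the complement of GCGTG searched below. DNAJB9 (chr7:108569624-108569873, plus strand) and HERPUD1 (chr16:56931892-56932141, plus strand) have 2 matches each before the start.
DNAJB9: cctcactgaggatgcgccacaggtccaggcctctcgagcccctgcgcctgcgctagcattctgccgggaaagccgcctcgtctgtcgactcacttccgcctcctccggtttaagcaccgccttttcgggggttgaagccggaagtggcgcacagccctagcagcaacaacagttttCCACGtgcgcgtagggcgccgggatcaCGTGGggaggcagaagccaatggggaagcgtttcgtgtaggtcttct
HERPUD1: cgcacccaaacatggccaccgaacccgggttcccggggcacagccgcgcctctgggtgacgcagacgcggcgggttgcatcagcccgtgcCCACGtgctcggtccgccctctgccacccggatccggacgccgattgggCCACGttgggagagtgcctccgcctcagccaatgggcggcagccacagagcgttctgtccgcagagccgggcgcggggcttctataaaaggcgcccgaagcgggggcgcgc

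Genes of protein entry into the ER, N-glycosylation and vesicle traffic were higher too. A list of 28 genes held those of translocation and N-glycosylation together with glycosaminoglycan enzymes. Of these 16 were higher (57.1%, all genes 4.02%) and 1 lower (3.57%, all genes 5.23%). The median was 0.34, and the counts were 22 and 3 with the block. Split by kind, of 21 genes of translocation and N-glycosylation 16 were higher and 0 lower (20 and 1 with the block), with a median of 0.44. SSR1 (340.3 and 347 CPM at 6 h and 599 and 579.5 CPM at 24 h, log2 fold change 0.78, standard error 0.069, adjusted p = 0.0017) and SSR2 (315 and 331 CPM at 6 h and 535 and 558 CPM at 24 h, log2 fold change 0.76, standard error 0.080, adjusted p = 0.0026) code for subunits of the translocon-associated complex. Their 24 h libraries lay above their 6 h libraries, and replicates differed little. SEC61A1, the channel, had 1433 and 1476 CPM at 6 h and 2253 and 2289 CPM at 24 h (log2 fold change 0.65, standard error 0.075, adjusted p = 0.0040). MOGS, the glucosidase that trims new N-glycans, had 41.1 and 42.6 CPM at 6 h and 54.7 and 58.5 CPM at 24 h (log2 fold change 0.44, standard error 0.083, adjusted p = 0.019). The same list held 7 enzymes of glycosaminoglycan synthesis, of which 0 were higher and 1 was lower (2 and 2 with the block), the chondroitin enzyme CHPF (log2 fold change -0.69, adjusted p = 0.0092). Of 25 COPII and COPI coat and cargo genes 13 were higher (52%, all genes 4.02%) and 0 lower. The median was 0.32, and the counts were 21 and 0 with the block. SEC24D, a COPII coat protein, had 121 and 123 CPM at 6 h and 193 and 204 CPM at 24 h (log2 fold change 0.70, standard error 0.079, adjusted p = 0.0035), and its coat partner SEC23B had 86.03 and 94.2 CPM at 6 h and 131 and 140.3 CPM at 24 h (log2 fold change 0.59, standard error 0.087, adjusted p = 0.0090). KDELR3, a receptor that returns ER proteins, had 115 and 138 CPM at 6 h and 173 and 186 CPM at 24 h (log2 fold change 0.51, standard error 0.11, adjusted p = 0.031), and TMED2, a cargo receptor, had 310.2 and 323 CPM at 6 h and 437 and 460.2 CPM at 24 h (log2 fold change 0.50, standard error 0.080, adjusted p = 0.011). Without 6 h replicate 1, 6 h replicate 2, 24 h replicate 1 or 24 h replicate 2, 5, 5, 9 and 10 members of the former list and 2, 2, 5 and 10 coat and cargo genes were called higher. The call was lost for SEC23B without 6 h replicate 1 (adjusted p = 0.054), and CHPF without 6 h replicate 2 (adjusted p = 0.063). It was also lost for TMED2 without 6 h replicate 1 or 2 (adjusted p 0.062 to 0.067), and MOGS without 6 h replicate 1 or 2 or 24 h replicate 2 (adjusted p 0.059 to 0.11). The same held for KDELR3 with any of the 4 left out (adjusted p 0.056 to 0.13).

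**Figure D3:**
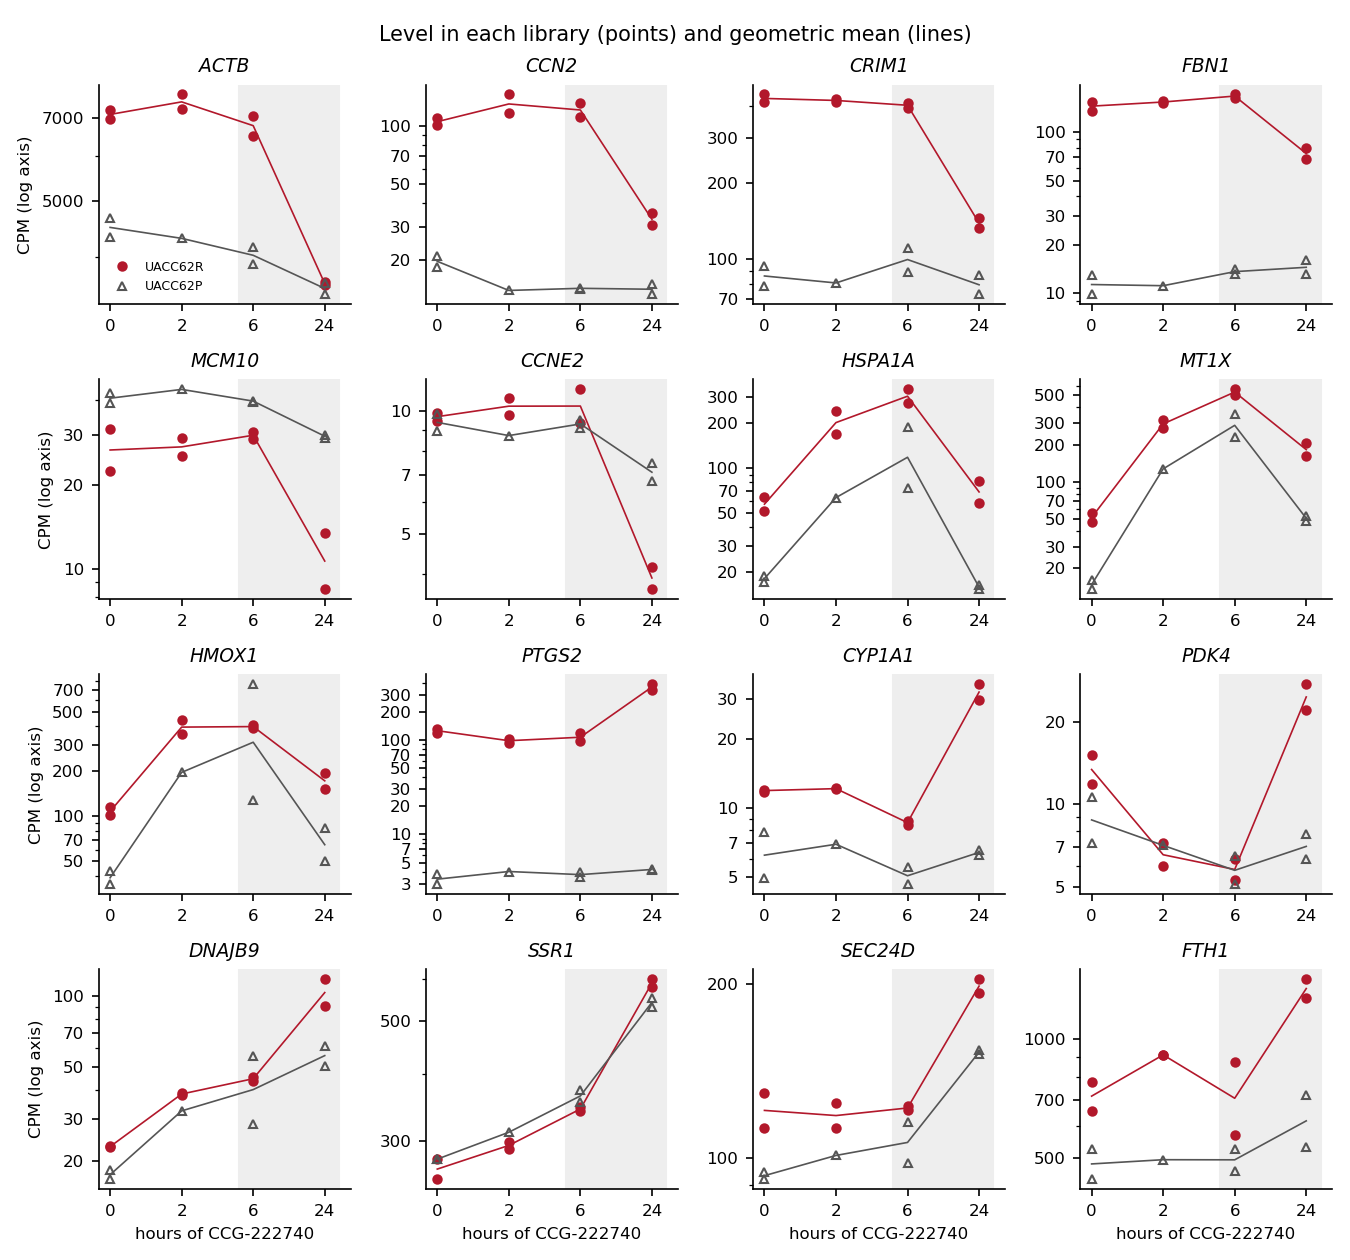
Each panel gives the CPM of a gene on a logarithmic axis in every UACC62R library (filled circles) and UACC62P library (open triangles) at 0, 2, 6 and 24 h, evenly spaced, with lines through geometric means and the compared times shaded. The library labelled UACC62P 2 h replicate 1 is not drawn; in UACC62R, ACTB, CCN2 and CRIM1 leave their earlier level only at 24 h, while HSPA1A and MT1X are highest at 6 h.

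Targets of NRF2, the factor that induces antioxidant and detoxifying enzymes, had mostly positive estimates (18 of 22). Of 22 members 7 were called higher (31.8%, all genes 4.02%) and 1 lower (4.55%, all genes 5.23%). The median was 0.40, and the counts were 15 and 3 with the block. FTH1, the ferritin heavy chain that stores iron, had 876 and 571 CPM at 6 h and 1419 and 1273 CPM at 24 h (log2 fold change 0.90, standard error 0.17, adjusted p = 0.019). AKR1C3 (log2 fold change 0.87, adjusted p = 0.023) and AKR1B10 (log2 fold change 0.83, adjusted p = 0.022), aldo-keto reductases, rose as well. HMOX1, the enzyme that breaks down heme, was the member that fell, at 389.9 and 405 CPM at 6 h and 195 and 153 CPM at 24 h (log2 fold change -1.19, standard error 0.14, adjusted p = 0.0037). For FTH1 the 6 h libraries stood further apart than the 24 h libraries, and for both genes the times did not overlap. FTH1 has pseudogenes and the AKR1C genes resemble one another, so their levels are uncertain. Higher members numbered 4, 1, 1 and 6 without 6 h replicate 1, 6 h replicate 2, 24 h replicate 1 or 24 h replicate 2. The test was no longer passed by FTH1 without 24 h replicate 1 (adjusted p = 0.068), and AKR1C3 without 6 h replicate 2 or 24 h replicate 1 (adjusted p 0.080 to 0.090). It was also lost for AKR1B10 without 6 h replicate 1 or 2 or 24 h replicate 2 (adjusted p 0.062 to 0.097). Under other settings the call was lost for HMOX1 in the 15-library fit (adjusted p = 0.14).

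The aryl hydrocarbon receptor is a transcription factor that planar aromatic compounds activate. Of 6 tested targets 3 were higher (50%, all genes 4.02%) and 0 lower (5 and 0 with the block), with a median of 0.49. CYP1A1, its best known target and an oxidising enzyme, had 8.81 and 8.46 CPM at 6 h and 29.8 and 34.8 CPM at 24 h (log2 fold change 1.90, standard error 0.12, adjusted p = 0.00077). AHRR, the repressor of the pathway, had 51.7 and 34.1 CPM at 6 h and 91.9 and 73.9 CPM at 24 h (log2 fold change 0.95, standard error 0.20, adjusted p = 0.027), and NQO1, a quinone reductase shared with NRF2, had 1179 and 922 CPM at 6 h and 1707 and 1517 CPM at 24 h (log2 fold change 0.62, standard error 0.14, adjusted p = 0.036). CYP1A1 kept close levels within each time, while AHRR and NQO1 were higher in replicate 1 at both times. By gene, the call did not hold for AHRR and NQO1 without 6 h replicate 2 or 24 h replicate 1 (adjusted p 0.10 to 0.19).

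The core of the xenobiotic response element, GCGTG, was in 5 of 5 members with a promoter and in 49.7% of tested genes. The match before the CYP1A1 start (chr15:74725529-74725778, minus strand) is in capitals.
CYP1A1: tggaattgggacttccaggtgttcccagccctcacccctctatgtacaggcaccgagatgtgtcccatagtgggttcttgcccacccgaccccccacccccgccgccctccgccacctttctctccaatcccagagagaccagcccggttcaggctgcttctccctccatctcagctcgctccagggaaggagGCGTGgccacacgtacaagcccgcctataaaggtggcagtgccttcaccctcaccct

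Smaller groups of stress and nutrient genes rose in part. Of 22 genes of the ATF4 response to amino acid or ER stress 6 were higher (27.3%, all genes 4.02%) and 1 lower. The median was 0.17, and the counts were 11 and 5 with the block. CEBPB, a transcription factor, had 36.9 and 29.5 CPM at 6 h and 79.9 and 65.1 CPM at 24 h (log2 fold change 1.13, standard error 0.14, adjusted p = 0.0045). TRIB3, a pseudokinase (log2 fold change 0.98, adjusted p = 0.034), ALDH1L2, a mitochondrial folate enzyme (log2 fold change 0.73, adjusted p = 0.016), and SLC3A2, an amino acid transporter chain (log2 fold change 0.40, adjusted p = 0.042), rose too. Of 14 FOXO-linked and starvation genes 5 were higher (35.7%, all genes 4.02%) and 0 lower. The median was 0.36, and the counts were 8 and 1 with the block. PDK4, a kinase that shuts pyruvate out of the mitochondrial cycle, had 6.34 and 5.31 CPM at 6 h and 27.3 and 22.1 CPM at 24 h (log2 fold change 2.08, standard error 0.17, adjusted p = 0.0016). KLHL24 (log2 fold change 0.74, adjusted p = 0.016), the transcription factor FOXO1 (log2 fold change 0.62, adjusted p = 0.037) and CCNG2, an unusual cyclin of resting cells (log2 fold change 0.52, adjusted p = 0.030), also rose. With 6 h replicate 1, 6 h replicate 2, 24 h replicate 1 or 24 h replicate 2 left out, 4, 1, 1 and 4 ATF4 genes and 2, 1, 1 and 3 FOXO-linked genes were called higher. No call remained for TRIB3, ALDH1L2 and KLHL24 without 6 h replicate 2 or 24 h replicate 1 (adjusted p 0.067 to 0.18), and FOXO1 without 6 h replicate 1 or 2 or 24 h replicate 1 (adjusted p 0.076 to 0.21). The same held for SLC3A2 without 6 h replicate 2 or 24 h replicate 1 or 2 (adjusted p 0.073 to 0.25), and CCNG2 with any of the 4 left out (adjusted p 0.068 to 0.16). The call also ended for SLC3A2 and CCNG2 in the 15-library fit (adjusted p 0.079 to 0.098), SLC3A2 and FOXO1 from the 4 compared libraries alone (adjusted p 0.064 to 0.078), and TRIB3 in the fit of 8 UACC62R libraries (adjusted p = 0.052).

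Of 26 lysosomal genes 6 were higher (23.1%, all genes 4.02%) and 0 lower (18 and 0 with the block), with a median of 0.20. MCOLN1, a lysosomal calcium channel (log2 fold change 0.42, adjusted p = 0.020), NEU1, a sialidase (log2 fold change 0.41, adjusted p = 0.022), CTSL, a protease (log2 fold change 0.40, adjusted p = 0.019), and GAA, a glucosidase (log2 fold change 0.40, adjusted p = 0.024), had close to the same fold. The median of 30 genes of cholesterol and fatty acid synthesis was 0.23. Of them 5 were higher (16.7%, all genes 4.02%) and 0 lower (14 and 1 with the block). They included the transcription factors SREBF1 (log2 fold change 0.71, adjusted p = 0.037) and SREBF2 (log2 fold change 0.50, adjusted p = 0.036), the epoxidase SQLE (log2 fold change 0.53, adjusted p = 0.028) and the desaturase FADS2 (log2 fold change 0.52, adjusted p = 0.016). Most of these calls were lost with 1 library left out: without 6 h replicate 1, 6 h replicate 2, 24 h replicate 1 or 24 h replicate 2, 0, 0, 0 and 6 lysosomal genes and 2, 1, 2 and 1 lipid genes were called higher. The call was lost for SREBF1 without 6 h replicate 2 or 24 h replicate 1 (adjusted p 0.15 to 0.20), and NEU1, CTSL and GAA without 6 h replicate 1 or 2 or 24 h replicate 1 (adjusted p 0.054 to 0.18). It was also lost for SQLE and FADS2 without 6 h replicate 1 or 2 or 24 h replicate 2 (adjusted p 0.052 to 0.13), and SREBF2 without 6 h replicate 2 or 24 h replicate 1 or 2 (adjusted p 0.074 to 0.22). The same held for MCOLN1 with any of the 4 left out (adjusted p 0.061 to 0.15). Under other settings the call was lost for GAA and SREBF1 from the 4 compared libraries alone (adjusted p 0.052 to 0.053), and SREBF2 in the fit of 8 UACC62R libraries (adjusted p = 0.055).

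The genes with the largest rises outside these groups were of several kinds. PADI4, which converts arginine to citrulline in proteins, had 2.92 and 1.18 CPM at 6 h and 12.6 and 8.51 CPM at 24 h (log2 fold change 2.36, standard error 0.42, adjusted p = 0.016). PTGS2, the inducible cyclooxygenase that makes prostaglandins, had 117 and 97.3 CPM at 6 h and 389 and 341 CPM at 24 h (log2 fold change 1.77, standard error 0.11, adjusted p = 0.00080). LAMB3, a laminin chain of epithelial basement membranes, had 127 and 105 CPM at 6 h and 335 and 291 CPM at 24 h (log2 fold change 1.43, standard error 0.12, adjusted p = 0.0017). JUP, plakoglobin of cell junctions, had 28.6 and 14.9 CPM at 6 h and 80.9 and 46.7 CPM at 24 h (log2 fold change 1.55, standard error 0.36, adjusted p = 0.036). For JUP and PADI4 replicate 1 lay well above replicate 2 at both times. That no 24 h library reached down to a 6 h library was a condition for naming the largest rises. PREX1, a guanine exchange factor for Rac, had 10.9 and 9.58 CPM at 6 h and 29.3 and 25.7 CPM at 24 h (log2 fold change 1.43, standard error 0.16, adjusted p = 0.0037), and NCALD, a calcium sensor, had 12.5 and 10.9 CPM at 6 h and 31.2 and 31.2 CPM at 24 h (log2 fold change 1.42, standard error 0.14, adjusted p = 0.0021). SNED1, a matrix protein (log2 fold change 1.82, adjusted p = 0.022), FAXDC2 (log2 fold change 1.45, adjusted p = 0.014), SORCS1, a sorting receptor (log2 fold change 1.35, adjusted p = 0.021), and the long noncoding RNA LINC02475 (log2 fold change 1.31, adjusted p = 0.022) complete the 12 largest rises, with PDK4 and CYP1A1 given above. The test was no longer passed by PADI4, JUP, SNED1, FAXDC2 and SORCS1 without 6 h replicate 2 or 24 h replicate 1 (adjusted p 0.056 to 0.16), and LINC02475 without 6 h replicate 1 or 2 or 24 h replicate 2 (adjusted p 0.060 to 0.097).

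Among the largest falls were keratin and hair keratin-associated genes. KRTAP2-3 had 10.0 and 11.2 CPM at 6 h and 1.04 and 1.34 CPM at 24 h (log2 fold change -3.14, standard error 0.19, adjusted p = 0.00077), and it belongs to a family with near-identical copies, so its level is uncertain. KRT80, a type II keratin, had 24.4 and 23.02 CPM at 6 h and 5.36 and 4.81 CPM at 24 h (log2 fold change -2.22, standard error 0.11, adjusted p = 0.00039). SERPINB7, a protease inhibitor, had 25.99 and 31.9 CPM at 6 h and 7.96 and 10.2 CPM at 24 h (log2 fold change -1.67, standard error 0.16, adjusted p = 0.0020). In these 3 genes every 24 h library lay far below every 6 h library. A lack of overlap was itself a condition for naming the largest falls. SERTAD4 had 16.7 and 19.97 CPM at 6 h and 5.23 and 6.18 CPM at 24 h (log2 fold change -1.68, standard error 0.15, adjusted p = 0.0017). KLHL23 had 19.2 and 22.3 CPM at 6 h and 4.06 and 5.62 CPM at 24 h (log2 fold change -2.09, standard error 0.17, adjusted p = 0.0016), and since it overlaps a readthrough transcript its count is uncertain. LINC01638 (log2 fold change -1.79, adjusted p = 0.023), MARCHF4, a ubiquitin ligase (log2 fold change -1.64, adjusted p = 0.024), and C2orf72 (log2 fold change -1.63, adjusted p = 0.015) fell as well, and HSPA1A, HSPA1B, CCN2 and CCN1 complete the 12 largest falls. By gene, the call did not hold for C2orf72 without 6 h replicate 1 (adjusted p = 0.061), and LINC01638 and MARCHF4 without 6 h replicate 2 or 24 h replicate 1 (adjusted p 0.093 to 0.13).

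Genes of the invasive or dedifferentiated melanoma state were lower in part. Of 22 members 6 were lower (27.3%, all genes 5.23%) and 0 higher (15 and 2 with the block), with a median of -0.33. They were CCN1, FOSL1 and THBS1, given above, with TEAD4, a DNA-binding partner of YAP (log2 fold change -1.04, adjusted p = 0.021), and the receptors AXL (-0.62) and EGFR (-0.62). The summed level of 8 markers of this state was 1324 and 1268 CPM at 6 h and 926 and 857 CPM at 24 h, and most of the fall was that of FOSL1. NGFR, a neural crest receptor, was not called (log2 fold change 1.63, adjusted p = 0.063). Of 13 tested pigment genes 1 was higher and 1 lower, 7.69% each against 4.02% and 5.23% of all genes. With the block 4 were higher and 2 lower. The 1 higher was the melanocortin receptor MC1R (log2 fold change 0.82, adjusted p = 0.037). The 1 lower was MLPH, which links pigment granules to motors (log2 fold change -0.27, adjusted p = 0.044). Of 12 identity genes (3 and 3 with the block) 1 was called, the granule and exosome protein CD63 (log2 fold change 0.48, adjusted p = 0.016). Without 6 h replicate 1, 6 h replicate 2, 24 h replicate 1 or 24 h replicate 2, 4, 3, 6 and 5 genes of the invasive list were called lower. No call remained for CD63 without 6 h replicate 2 or 24 h replicate 1 (adjusted p 0.058 to 0.12), and TEAD4 without 6 h replicate 1 or 2 or 24 h replicate 2 (adjusted p 0.056 to 0.083). It was also lost for MC1R and MLPH with any of the 4 left out (adjusted p 0.061 to 0.22). The call also ended for MC1R and MLPH from the 4 compared libraries alone (adjusted p 0.055 to 0.090), and MLPH with library size alone (adjusted p = 0.063).

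Signalling outputs were mixed and had few calls. Shares higher and lower were 11.1% and 5.56% for MAPK output, 5.26% and 21.1% for NF-kB and 5.26% and 10.5% for TGF-beta. They were 9.09% and 4.55% for p53 targets and 7.14% each for the BCL2 family, against 4.02% and 5.23% of all genes. A share that rests on 1 or 2 called genes is not a result about the list. Of 18 MAPK output genes 2 were higher, the transcription factor ETV5 (log2 fold change 0.30, adjusted p = 0.043) and the feedback inhibitor SPRY2 (log2 fold change 0.49, adjusted p = 0.033). In that list 1 was lower, the cytokine LIF (log2 fold change -0.40, adjusted p = 0.026) (8 and 6 with the block). Of 19 NF-kB targets and cytokines (2 higher and 8 lower with the block) 1 was higher, PTGS2, and 4 were lower, among them the chemokines CCL2 (log2 fold change -1.26, adjusted p = 0.011) and CXCL1 (log2 fold change -1.12, adjusted p = 0.0087). Of 19 genes of the TGF-beta pathway (4 and 5 with the block) 2 were lower, the matrix proteins TGFBI (log2 fold change -1.05, adjusted p = 0.026) and LTBP2 (log2 fold change -0.83, adjusted p = 0.0077). The 1 higher was the decoy receptor BAMBI (log2 fold change 0.84, adjusted p = 0.019). Of 22 p53 targets 2 were higher and 1 lower (5 and 3 with the block). GDF15, a stress cytokine, had 986 and 721 CPM at 6 h and 2303 and 1732 CPM at 24 h (log2 fold change 1.24, standard error 0.18, adjusted p = 0.0091). TP53INP1 rose (log2 fold change 0.61, adjusted p = 0.019) and GADD45B fell (log2 fold change -0.94, adjusted p = 0.010). In the BCL2 family of 14 genes (2 higher and 4 lower with the block) 1 was called each way. BMF, which promotes cell death, rose (log2 fold change 0.99, adjusted p = 0.041) and MCL1, which opposes it, fell (log2 fold change -0.38, adjusted p = 0.038). The NF-kB count of 4 was 2, 0, 3 and 2 without 6 h replicate 1, 6 h replicate 2, 24 h replicate 1 or 24 h replicate 2. The call was lost for CCL2, CXCL1, LTBP2, GDF15 and GADD45B without 6 h replicate 2 (adjusted p 0.051 to 0.067), and SPRY2, TGFBI, BAMBI and TP53INP1 without 6 h replicate 2 or 24 h replicate 1 (adjusted p 0.059 to 0.21). The same held for LIF without 6 h replicate 1 or 2 or 24 h replicate 2 (adjusted p 0.069 to 0.11), and ETV5, BMF and MCL1 with any of the 4 left out (adjusted p 0.052 to 0.26). Under other settings the call was lost for GADD45B in the 15-library fit (adjusted p = 0.058), ETV5, SPRY2, LIF, BMF and MCL1 from the 4 compared libraries alone (adjusted p 0.052 to 0.086), and MCL1 with library size alone (adjusted p = 0.056).

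The remaining lists had few calls, at most 11.1% of a list either way, against 4.02% higher and 5.23% lower over all genes. The calls below are therefore single genes and not results about a list. Of 24 glycolysis and hypoxia genes (7 higher and 11 lower with the block), P4HA1, a collagen-modifying hydroxylase, was higher (log2 fold change 0.53, adjusted p = 0.0057) and PFKP, a phosphofructokinase, lower (log2 fold change -0.40, adjusted p = 0.033). Of 23 interferon-stimulated genes (8 and 2 with the block) STAT2 was higher (log2 fold change 0.61, adjusted p = 0.034) and OAS3 lower (log2 fold change -0.35, adjusted p = 0.035). Of 16 clock genes (5 and 4 with the block) TEF was higher (log2 fold change 0.44, adjusted p = 0.031) and CRY1 lower (log2 fold change -0.58, adjusted p = 0.031). Of 18 aminoacyl-tRNA synthetases (2 and 7 with the block) HARS1 (log2 fold change -0.37, adjusted p = 0.037) and KARS1 (log2 fold change -0.28, adjusted p = 0.047) were lower. Of 24 proteasome subunits (0 and 10 with the block) PSMD2 was (log2 fold change -0.39, adjusted p = 0.032). Among 22 subunits of the respiratory chain 0 were called either way by edgeR, 0 had an unadjusted p under 0.05 and DESeq2 called 0 (0 higher and 2 lower with the block), and ATP5F1B had the smallest p (log2 fold change -0.15, adjusted p = 0.19, and 0.012 with the block). Among 5 tested markers of other cell types 0 were called by edgeR (1 lower at an unadjusted p under 0.05, by DESeq2 and with the block), and KRT18 had the smallest p (log2 fold change -0.40, adjusted p = 0.058, and 0.00016 with the block). The test was no longer passed by P4HA1 without 6 h replicate 2 (adjusted p = 0.052), and OAS3, CRY1, HARS1 and PSMD2 without 6 h replicate 1 or 2 or 24 h replicate 1 (adjusted p 0.062 to 0.22). It was also lost for PFKP and STAT2 without 6 h replicate 1 or 2 or 24 h replicate 2 (adjusted p 0.067 to 0.15), and TEF and KARS1 with any of the 4 left out (adjusted p 0.069 to 0.24). The call also ended for PFKP, STAT2, OAS3, TEF, CRY1, HARS1, KARS1 and PSMD2 from the 4 compared libraries alone (adjusted p 0.053 to 0.087), and OAS3, HARS1 and KARS1 with library size alone (adjusted p 0.056 to 0.070).

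Values against the untreated UACC62R libraries, which share the 6 h or the 24 h libraries with the comparison above and so are given as description, place these changes in the course of treatment. The untreated libraries also carry other texts in their labels than the treated ones. The actin, YAP/TAZ and replication lists stood near the untreated level at 6 h and below it at 24 h: their median log2 differences from 0 h were -0.019, -0.039 and -0.0083 at 6 h and -0.43, -0.77 and -0.85 at 24 h. CRIM1 had 413 and 443 CPM at 0 h and ACTB 7219.5 and 6967 CPM. CCN1 was already lower at 6 h: it had 95.1 and 93.6 CPM at 0 h, and its log2 difference from 0 h was -0.45 at 6 h and -2.16 at 24 h. For CCN2 it was 0.21 and -1.69. The heat shock list was above the untreated level at 6 h (median 0.49) and near it at 24 h (-0.060). HSPA1A had 51.5 and 63.4 CPM at 0 h, close to its 24 h level. MT1X had 55.6 and 47.8 CPM, SLC30A1 52.02 and 66.2 CPM and HMOX1 115 and 102 CPM at 0 h, each under its 24 h level. By median, the ER and vesicle transport lists stood above the untreated level at 24 h. The median log2 difference from 0 h was -0.056 at 6 h and 0.39 at 24 h for ER chaperones. It was 0.13 and 0.41 for the list of translocation, N-glycosylation and glycosaminoglycan enzymes, and -0.0041 and 0.32 for vesicle transport. Not all members did so. DNAJC3 and MOGS were highest at 0 h, at 56.97 and 61.2 and 87.1 and 80.9 CPM, so their rise from 6 h to 24 h left them below the untreated level. DNAJB9 had 22.7 and 23.1 CPM at 0 h and 38.7 and 37.96 CPM at 2 h, below its later levels. PDK4 had 11.9 and 15.1 CPM and CYP1A1 11.8 and 12.1 CPM at 0 h, above their 6 h and below their 24 h levels.

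**Figure D4:**
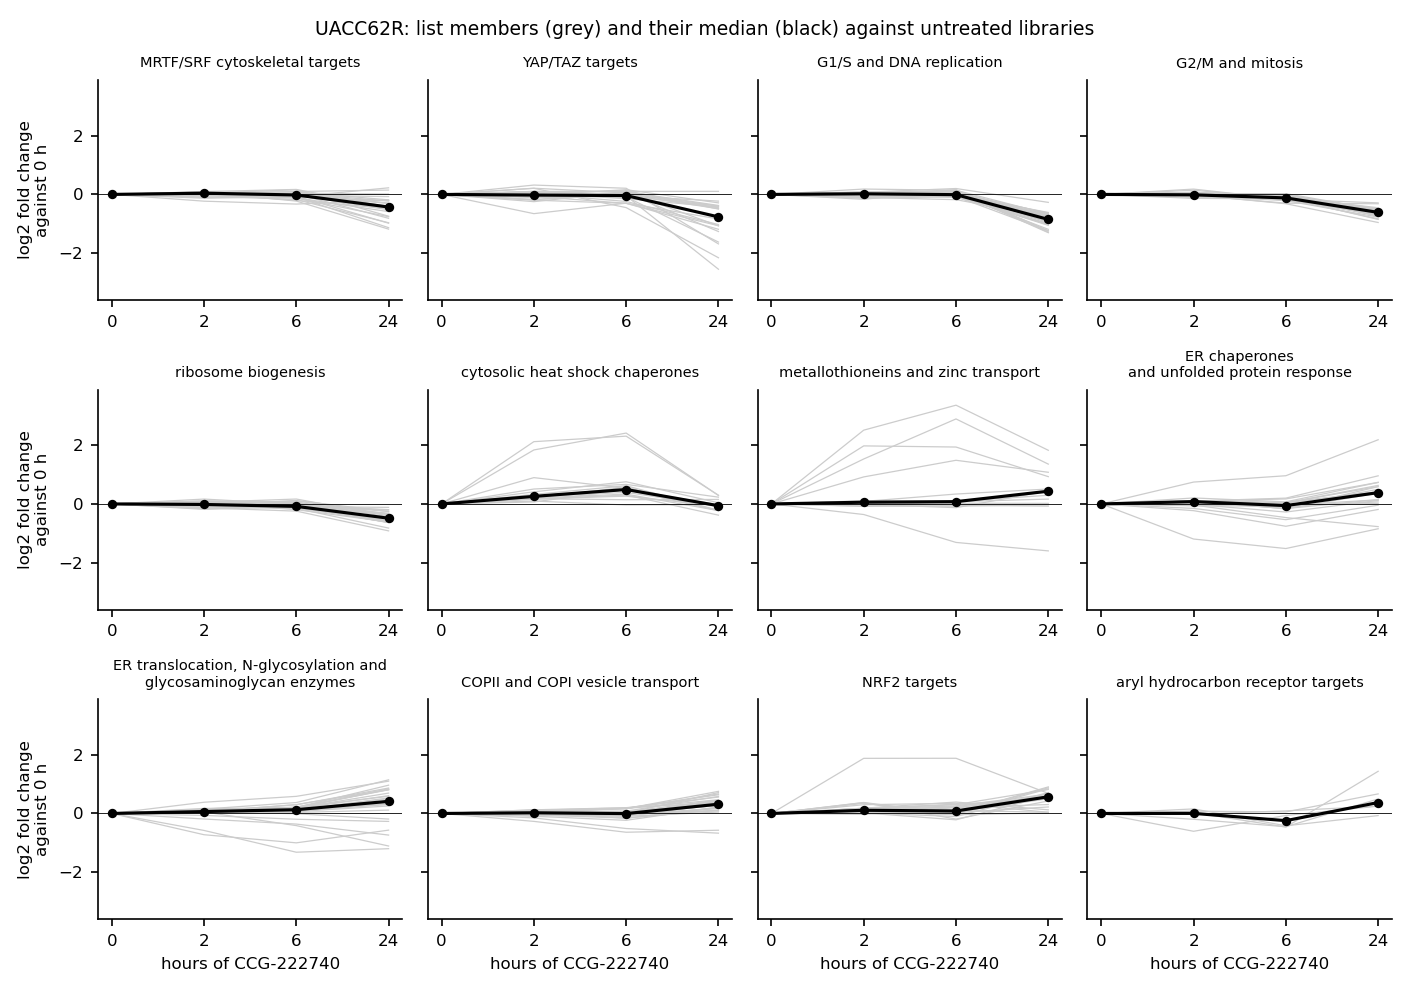
Grey lines are members of 12 gene lists in UACC62R and black lines the list medians, as log2 fold change against the untreated libraries at 2, 6 and 24 h, evenly spaced. The replication list leaves 0 only at 24 h (median -0.85), whereas the heat shock list is at 0.49 at 6 h and -0.06 at 24 h.

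In UACC62P, the parental line, 32 genes were higher over the same interval (0.172% of 18626 tested) and 37 lower (0.199%), and 304 (1.63%) and 309 (1.66%) with the block. In fits of the same form, each on its 4 compared libraries alone, UACC62P gave 142 higher and 233 lower against 458 and 590 in UACC62R, and DESeq2 gave 121 and 156 against 820 and 1192. Leaving out UACC62P 6 h replicate 1 gave 1 higher and 12 lower, 6 h replicate 2 gave 0 and 7, and either 24 h replicate gave 0 and 0, so these counts rest on every UACC62P library. They grew to 79 and 140 without UACC62R 24 h replicate 1 and to 78 and 167 without UACC62R 24 h replicate 2, which share the fit. The UACC62P calls come from a fit of 8 libraries, and a larger count in 1 line does not show that the lines differ. Of 1660 genes called in UACC62R and tested in both fits, 1342 (80.8%) had the same sign in UACC62P, against 61.7% of all 17773 genes. Of 69 genes called in UACC62P, 53 were called in UACC62R in the same direction, which is 76.8% of the UACC62P list and 3.19% of the UACC62R list. Heat shock and metal genes were among those called in both lines. In UACC62P HSPA1A had 73.5 and 190.001 CPM at 6 h and 15.3 and 16.3 CPM at 24 h (log2 fold change -3.05, adjusted p = 0.023) and MT1X had 231 and 355 CPM at 6 h and 52.9 and 48.8 CPM at 24 h (log2 fold change -2.52, adjusted p = 0.0011). SSR1 (log2 fold change 0.58, adjusted p = 0.023), SSR2 (log2 fold change 0.50, adjusted p = 0.031), SEC24D (log2 fold change 0.52, adjusted p = 0.043) and TMED2 (log2 fold change 0.44, adjusted p = 0.045) rose there too, and FOSL1 (log2 fold change -0.54, adjusted p = 0.043), JUN (log2 fold change -0.68, adjusted p = 0.023) and SLC30A1 (log2 fold change -1.10, adjusted p = 0.026) fell. List medians in UACC62P were -0.61 for heat shock chaperones, 0.29 for translocation and N-glycosylation and 0.23 for vesicle transport. They were -0.31 for G1/S genes and -0.40 for mitotic genes (-0.84 and -0.52 in UACC62R). For MRTF/SRF targets, YAP/TAZ targets and ribosome assembly genes they were -0.025, -0.011 and 0.077 (-0.41, -0.62 and -0.42 in UACC62R).

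The test of the difference between the lines named 72 genes, with 15 higher (0.0805% of 18626) and 57 lower (0.306%) in UACC62R, and 278 (1.49%) and 460 (2.47%) with the block. Scaled by library size alone the counts were 29 and 47. Of the 72, 56 were called lower and 12 higher in UACC62R itself. CCN2 was 14.2 and 14.4 CPM at 6 h and 13.3 and 15.02 CPM at 24 h in UACC62P (difference -1.88, standard error 0.17, adjusted p = 0.0066), where the times overlapped and both lay far below the 6 h level in UACC62R. AMOTL2 (difference -1.37, standard error 0.14, adjusted p = 0.0066, log2 fold change 0.060 in UACC62P), CRIM1 (difference -1.20, standard error 0.16, adjusted p = 0.017) and the matrix gene FBN1 (difference -1.28, standard error 0.16, adjusted p = 0.014) also had a more negative change in UACC62R. Both cytoplasmic actins were among them, ACTB (difference -0.73, standard error 0.11, adjusted p = 0.025) with 4167 and 3889 CPM at 6 h and 3607 and 3441 CPM at 24 h in UACC62P and ACTG1 (difference -0.87, standard error 0.15, adjusted p = 0.046), together with CNN3 (difference -0.76, standard error 0.10, adjusted p = 0.014). Called in the difference were 4 members of the MRTF/SRF list, 3 YAP/TAZ targets, 3 G1/S genes and 2 ribosome assembly genes. All were lower in UACC62R, and 0 mitotic genes were called. CLDN1, a tight junction protein, had the largest difference of the genes named (difference -2.13, standard error 0.23, adjusted p = 0.0089). It was low, at 3.72 and 3.08 CPM at 6 h and 0.682 and 0.903 CPM at 24 h in UACC62R. Its call within UACC62R was lost without 6 h replicate 1 or 2 or 24 h replicate 1. The log2 fold change there ran from -2.31 to -1.91 across the alternatives. CDCA7 (difference -1.58, standard error 0.19, adjusted p = 0.014) and ZNF367 (difference -1.45, standard error 0.23, adjusted p = 0.032), genes of cycling cells, also had a more negative change in UACC62R.

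PDK4 (difference 1.80, standard error 0.25, adjusted p = 0.022), PTGS2 (difference 1.59, standard error 0.19, adjusted p = 0.012) and CYP1A1 (difference 1.56, standard error 0.20, adjusted p = 0.014) rose more in UACC62R. PTGS2 had 3.96 and 3.51 CPM at 6 h and 4.29 and 4.17 CPM at 24 h in UACC62P, far below UACC62R at both times. PSD4 fell in UACC62P (log2 fold change -1.78, adjusted p = 0.023) and was not called in UACC62R (log2 fold change -0.18, adjusted p = 0.49), and its difference was called (adjusted p = 0.046). RPSA, a ribosomal protein with many pseudogenes whose count is uncertain, had 67.2 and 58.02 CPM at 6 h and 138 and 127 CPM at 24 h in UACC62R (log2 fold change 1.09, adjusted p = 0.058, and 6.9e-05 with the block; difference 1.28, standard error 0.13, adjusted p = 0.0066). The difference was not called for HSPA1A (adjusted p = 0.46), MT1X (adjusted p = 0.12) or SSR1 (adjusted p = 0.44), which does not show that the lines respond alike. With UACC62P 6 h replicate 1 left out 6 genes were higher and 21 lower, and without UACC62P 6 h replicate 2 there were 5 and 7. Leaving out UACC62P 24 h replicate 1 gave 0 and 1, and UACC62P 24 h replicate 2 gave 0 and 0. Without UACC62R 6 h replicate 2 there were 4 and 21, and without UACC62R 24 h replicate 2 there were 108 and 217.

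**Figure D5:**
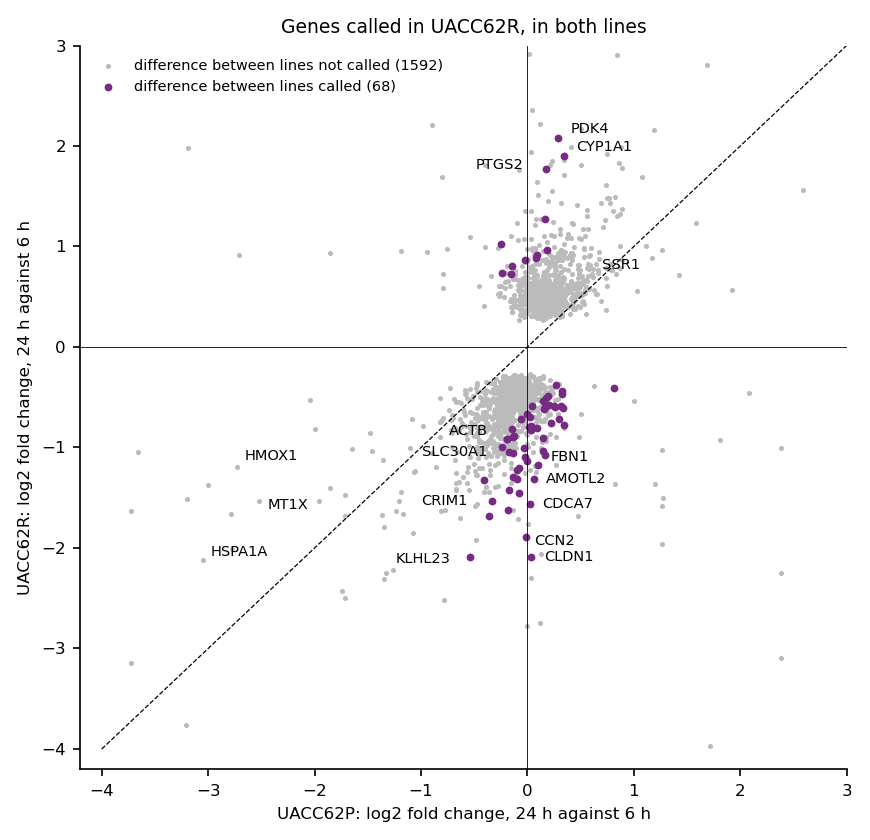
Each point is 1 of 1660 genes called in UACC62R, at its log2 fold change from 6 h to 24 h in UACC62P (horizontal) and in UACC62R (vertical), with 6 outside the range; the dashed line marks equal change. The 68 purple genes are those whose difference between the lines was called, and among them CCN2 and PTGS2 lie near 0 in UACC62P, while HSPA1A and MT1X, not among them, fell in both lines.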

How the data were processed

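Poly(A) RNA was sequenced as single 50-base reads from stranded libraries, per the labels' protocols. The authors deposited whole-number read counts per gene for each library, and the submitters' processing notes name the build hg19 with HISAT2 2.1.0, HTSeq 0.6.1, Trimmomatic 0.33, FastQC 0.11.5 and bcl2fastq 2.19.0. Whether HTSeq counted by strand is not given in the sources used. Reads that aligned to more than 1 place (19.3 to 20.6% in the 4 libraries) or to no place, and the other summary lines that name no gene, were left out of library sizes and tests.

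Counts were scaled by TMM, filtered with filterByExpr and tested with edgeR 4.0.16 (R 4.3.3) in a fit of the 6 treated UACC62R libraries (27.0 to 32.6 M reads in genes), with Benjamini-Hochberg adjustment over all genes. The fit of 8 libraries at 6 h and 24 h gave UACC62P and the difference between the lines. CPM are scaled by TMM over 15 libraries, leaving out UACC62P 2 h replicate 1, which stood apart.

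The labels number replicates 1 and 2 in each group without saying what a number shares. Deviations of same-numbered libraries correlated at 0.65 to 0.72 over 6 pairs of UACC62R groups (8360 genes), and at 0.31 to 0.55 within UACC62P, so the numbers were taken to pair libraries, from the data, and counts with the replicate block stand beside those without.

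Members and gene lists were chosen with earlier results of these data known. Named genes were the 12 largest called changes each way (mean log2 CPM of at least 2, groups not overlapping, no clones, pseudogenes or antisense genes), up to 4 called members per list, 5 genes each way for the difference between the lines, and a fixed set of factors and marker genes. Other list members were named after their values were seen. Alternatives were another scaling, other filters, DESeq2 1.42.0, the block, other sets of libraries and each replicate left out. Promoter sequences are from RefSeq (GRCh38.p14), matched by symbol for 11802 of the tested genes, and no coordinates were taken from hg19.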

Additional observations from a re-analysis of the deposited data

Results flagged for a closer look

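The change from 6 h to 24 h differed between the lines, by the interaction test of the 8-library fit, for 15 genes that were higher in UACC62R and 57 that were lower, and the values here are UACC62R minus UACC62P on the log2 scale. Among the cytoskeletal and YAP/TAZ genes the difference was -0.727 for ACTB, -0.869 for ACTG1, -0.760 for CNN3, -1.37 for AMOTL2, -1.88 for CCN2 and -1.20 for CRIM1. It was -1.28 for the matrix gene FBN1, -2.13 for CLDN1, -1.58 for CDCA7, -1.45 for ZNF367, -1.56 for KLHL23 and -1.32 for SERTAD4. Of the 15 higher genes, those named are PDK4 at 1.80, PSD4 at 1.59, PTGS2 at 1.59, CYP1A1 at 1.56, RPSA at 1.28 and KLHL24 at 0.975. Among these, PSD4 and RPSA were not called in UACC62R itself, and PSD4 fell in UACC62P. Groups of 2 libraries are too small for a test of single outlying libraries.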

How the results depend on the processing

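Counts of genes called are given as higher and lower, and the causes of the shifts were not tested. In UACC62R they were 1349 and 1823 with no filter, 458 and 590 from the 4 compared libraries alone, 1051 and 1499 from 15 libraries, and 62 and 96 from all 16 libraries, where the library labelled UACC62P 2 h replicate 1 enters the spread. The replicate block gave 2588 and 2968 in UACC62R (2597 and 3136 in a fit of 8 UACC62R libraries), 304 and 309 in UACC62P, and 278 and 460 for the difference between the lines. With 1 library left out the counts ran from 73 to 586 and from 135 to 971 in UACC62R, from 0 to 79 and from 0 to 167 in UACC62P, and from 0 to 108 and from 0 to 217 for the difference. UACC62P gave 274 and 451 with no filter, 121 and 156 with DESeq2, 142 and 233 from its 4 libraries, and 19 higher with a filter of 1 CPM in 2 libraries. The difference gave 307 and 457 with no filter, 111 and 249 with DESeq2, and 29 higher with library size alone. Of 121 called named genes, 0 reversed under any alternative and 46 kept call and direction under all but the 16-library fit, which ended 102 calls. Among 13 not called, ACTA2 reversed to 0.034 and 0.00098 without 6 h or 24 h replicate 1 of UACC62R, TAGLN to -0.17 and -0.27 without 6 h replicate 1 or 24 h replicate 2, and MRTFB to -0.064 without 24 h replicate 1. With single libraries left out ACTA2 ran from -0.11 to 0.034, TAGLN from -0.27 to 0.51 and MRTFB from -0.064 to 0.39. The spread rests on 2 libraries a group, at 28.9 to 32.6 M reads in genes, and an arm left with 1 library is assumed to vary like the others.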
